A study of Mus musculus with 24 samples.

Results

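The genes described are those for the subunits of the glutamate and GABA receptors in the ventromedial hypothalamus (VMH), a nucleus that regulates energy balance. They were chosen by symbol: AMPA (Gria), NMDA (Grin), kainate (Grik) and metabotropic (Grm) glutamate receptors, and GABA-A (Gabr) and GABA-B (Gabbr) receptors, each from an array feature annotated to that symbol alone. The rule found 36 of the 30142 genes with such a feature, 21 for glutamate and 15 for GABA receptors. Of the 36, 31 reached the level set for testing and entered the tests beside 16738 genes in all.

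RNA was measured on Affymetrix arrays in VMH dissected from brain sections of 100 µm and in brown adipose tissue. The mice were labelled control or Gfap-Bmal1 cKO, a conditional knockout of the clock gene Bmal1 named for Gfap, a gene of astrocytes, and ate a standard diet (SD) or a high fat diet (HFD) for 16 weeks. The 4 VMH groups were control on SD, cKO on SD, control on HFD and cKO on HFD, with 3 arrays each. The study asked how the astrocyte clock bears on energy expenditure. The sample titles mark the control arrays WT and the cKO arrays KO. Age, sex and any further detail of the control genotype were not given in the sources used here, nor was the deleted part of Bmal1. Whether each array stands for its own animal is not stated, so the p-values refer to array-to-array spread that could be technical. All values are the deposited log2 signals, and a difference of 1 is a doubling.

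Glutamate is the main excitatory transmitter of the brain, and VMH neurons are largely glutamatergic. It opens AMPA, kainate and NMDA receptor channels, the last also passing calcium, and acts more slowly through the G-protein-coupled metabotropic receptors. GABA, the main inhibitory transmitter, opens the chloride channel of GABA-A receptors, built from alpha, beta and further subunits, and signals through the G-protein-coupled GABA-B receptor.

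Of the markers of VMH neurons, Fezf1 lay between 14.56 and 15.6 and Slc17a6, the glutamate transporter of their vesicles, between 15.36 and 15.96 over the 12 arrays. Nr5a1, the transcription factor that defines the VMH, lay between 7.53 and 8.47, below the 95th percentile of the negative-control features (9.73). The signal of Bmal1 (Arntl) did not fall with the cKO label: it was 8.62 ± 0.16 in controls and 9.17 ± 0.21 in cKO under SD, and 8.95 ± 0.23 and 9.19 ± 0.30, in that order, under HFD (mean ± SD of 3 arrays). Another pair of arrays stood apart for other tissue. cKO HFD array 2 carried pituitary transcripts, with prolactin (Prl) at 17.37 against 4.11 to 4.58 on the other 11 arrays and growth hormone (Gh) at 13.74 against 4.80 to 5.47. Control SD array 3 had the highest mean over 16 oligodendrocyte markers, 10.48, against 8.78 to 9.75 on the others. Values that moved by over 1.5 times without either array are given both ways. In tissue RNA, fewer cells of a type and less RNA per cell cannot be told apart.

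Grin2c, the gene for the NMDA receptor subunit GluN2C, was the 1 receptor subunit whose signal passed the test for genotype over all genes. Its level was no higher than that of many negative controls. Its promoter is printed here because Grin2c was the subunit called, and a part of the promoter in that result was not tested. GluN2C is best known from cerebellar granule cells and is also found in astrocytes. The 300 bases run from 250 before to 50 after the transcript start on the minus strand of chromosome 11 (chr11:115267194-115267493, GRCm38.p6, RefSeq), with matches to GGGCGG, the GC box bound by Sp1-type factors, in capitals.
Grin2c promoter: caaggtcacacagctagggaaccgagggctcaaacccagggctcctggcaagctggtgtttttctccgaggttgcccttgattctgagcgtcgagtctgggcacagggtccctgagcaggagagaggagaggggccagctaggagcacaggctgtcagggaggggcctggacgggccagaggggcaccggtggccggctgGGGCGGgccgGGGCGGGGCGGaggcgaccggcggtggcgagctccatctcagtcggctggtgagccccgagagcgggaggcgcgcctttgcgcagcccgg
Bases G and C made up 70% of this stretch, and GGGCGG matched at 3 places, against a match on either strand in 35.7% of the 32851 mouse promoters of that length in the table. CACGTG, the E-box to which BMAL1 and CLOCK are known to bind, was not among these letters, nor was the looser form CANNTG, which includes it. The table held 32 promoters of 27 of the receptor genes. CACGTG occurred in 0 of these 32 and in 7.15% of all promoters, TTATGNAA, the D-box bound by clock output factors, in 0 of 32 and in 3.38%, CANNTG in 14 of 32 and in 72.3%, and GGGCGG in 16 of 32 and in 35.7%. These are letter matches within 300 bases, searched on both strands.

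Grin2c stood at 6.12, 6.21 and 6.21 on control SD arrays 1 to 3, at 6.47, 6.44 and 6.40 in cKO on SD, at 6.10, 6.11 and 6.09 in controls on HFD, and at 6.39, 6.25 and 6.22 in cKO on HFD. Every cKO array was above every control array of its diet. These signals were at the level of the negative-control features, above 51.1% of the 5222 on the arrays and below their 95th percentile of 9.73 on every array, so a fold of RNA cannot be read from them. Averaged over diets the Grin2c signal was 0.224 ± 0.042 higher in cKO (SE; 95% interval 0.132 to 0.316), with a limma adjusted p of 0.0407 (Benjamini-Hochberg over 16738 genes). The difference was 0.259 ± 0.059 on SD (limma adjusted p = 0.224) and 0.189 ± 0.059 on HFD (limma adjusted p = 0.291), so neither diet alone passed the threshold of 0.05. The call was also lost when any of the 12 arrays was left out: the difference then ran from 0.199 to 0.24 and the limma adjusted p from 0.0583 to 0.119, with 0.233 and 0.0868 without cKO HFD array 2 and 0.232 and 0.0596 without control SD array 3. It was lost too with a pseudocount of 16 (limma adjusted p = 0.0552), with no filter on low values (0.0908) and with the replicate number as a block (0.0879). Aqp4, the water channel of astrocyte endfeet, rose in the same comparison by 0.475 ± 0.091 (limma adjusted p = 0.0493), and of 17 astrocyte markers tested it was the 1 that passed, with 10 positive and 7 negative and 10 at an unadjusted p under 0.05, where all genes had 11.2%. Gfap, the astrocyte filament gene, stood at 11.45 ± 1.07 in controls and 12.98 ± 0.25 in cKO on SD, and at 11.33 ± 0.38 and 12.42 ± 0.52 on HFD (SD, n = 3), with every cKO array above every control array of its diet. On HFD, where 11 of the 17 were positive and 6 negative, the smallest p-values belonged to markers lower in cKO. These were Slc1a2, at -0.303 ± 0.071 (SE; limma adjusted p = 0.152), and Gpc5, at -0.553 ± 0.141 (0.202), both without overlap of the groups. The mean of these 17 markers lay between 10.52 and 10.99 in controls and 10.78 and 11.03 in cKO on SD, and between 10.66 and 10.83 in controls and 10.78 and 10.86 in cKO on HFD. The part of astrocyte RNA in the Grin2c result was not tested.

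**Figure D1:**
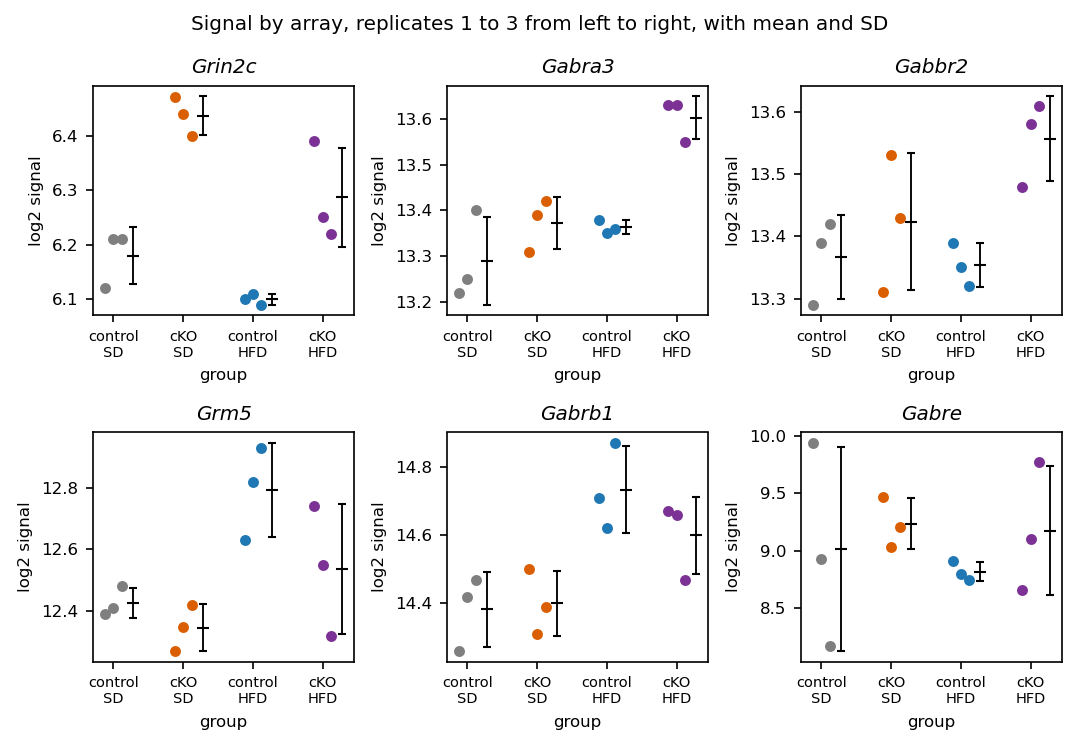
Log2 signal of 6 receptor subunits on each VMH array, replicates 1 to 3 from left to right within a group, with the group mean and SD (n = 3). Grin2c shows cKO arrays above control arrays on both diets, and Gabre shows control SD arrays spread from 8.17 to 9.94.

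The plot of single arrays shows the cKO and control points of Grin2c apart on each diet. For Gabra3 and Gabbr2 they were apart on HFD only. For Grm5 and Gabrb1 they overlapped on both diets, and it was the control arrays that were apart between diets. The control SD arrays of Gabre alone spanned more than any difference between group means.

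The levels of the subunits are given by class, each gene against itself, since signals of different features cannot be compared in size. Of the 36 genes, 20 lay above the 95th percentile of the negative-control features (9.73), among them every AMPA and GABA-B subunit. Of the 31 tested, 11 did not: Grin2a, Grin2c, Grin2d, Grin3a, Grik1, Grik3, Grik4, Grik5, Grm2, Grm4 and Gabre. The 5 below the level for testing were Grin3b, Grm6, Gabra6, Gabrd and Gabrp, at 4.08 to 4.83 on all arrays. Gabra6 and Gabrd belong to receptors best known from cerebellar granule cells, Grm6 to retinal bipolar cells, and Gabrp to tissues outside the brain. In brown fat 6 of the 36 reached the level for testing there: Gria3, Grik5, Gabra2, Gabra3, Gabbr1 and Gabbr2. That level was 4.0535, lower than the 5.3885 of VMH, and the medians of the 6 in brown fat lay between 4.39 and 5.02. The negative-control level in brown fat was not computed, so these values do not show that the RNAs were present there.

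**Figure D2:**
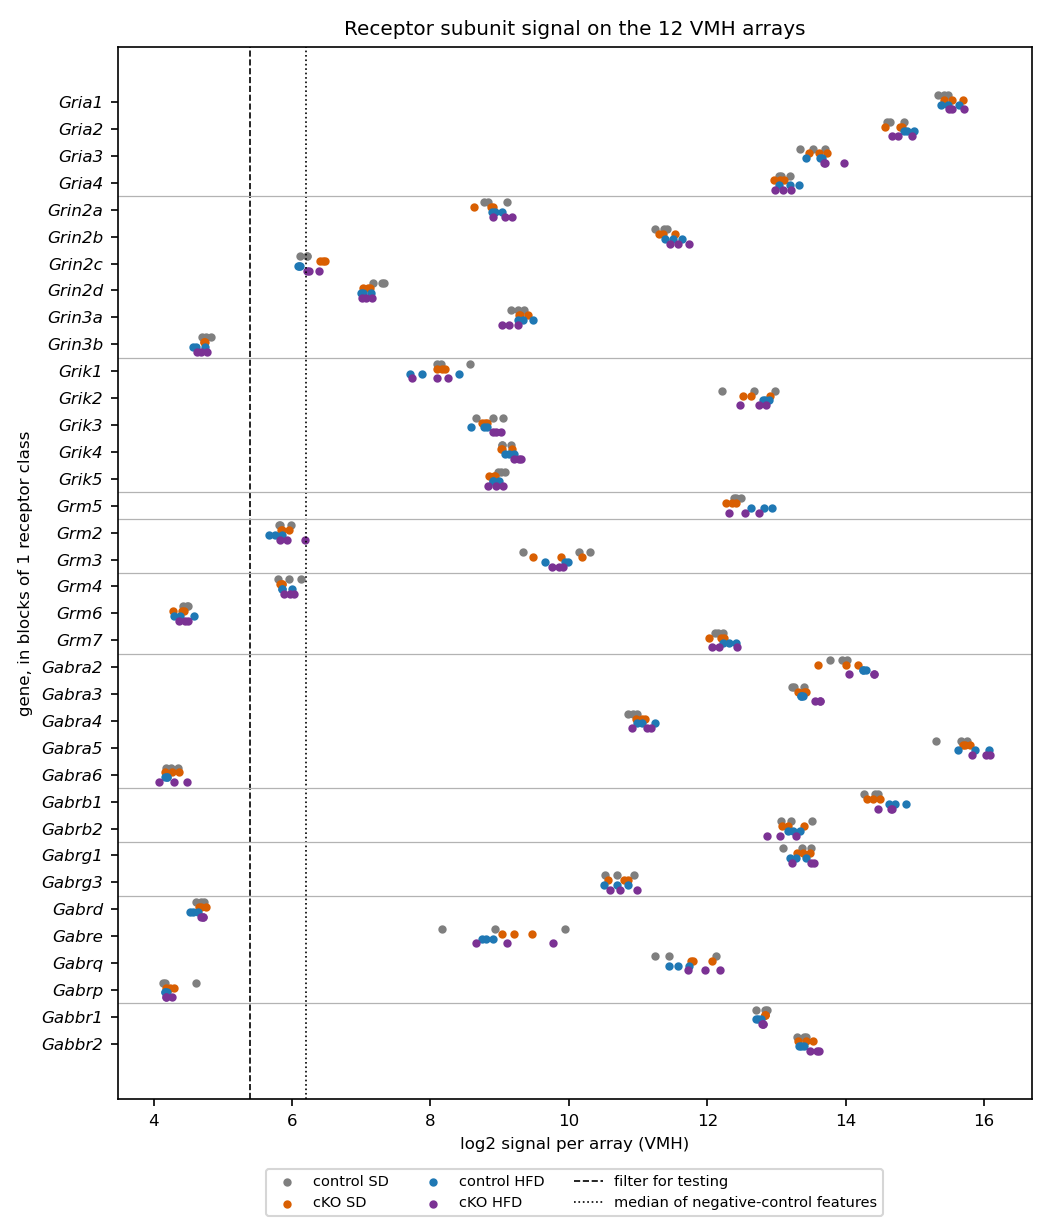
Log2 signal of all 36 subunits on the 12 VMH arrays, 1 point per array coloured by group, with the level for testing (dashed) and the median of the negative-control features (dotted). Grin3b, Grm6, Gabra6, Gabrd and Gabrp lie left of the dashed line, and for most subunits the 4 groups cover the same range.

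The plot of levels shows the 4 groups of a gene stacked by colour. For most genes the colours lay over each other, and the exceptions are named with their comparisons.

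Of the AMPA subunits, which carry fast excitation, Gria1 stood at 15.42, 15.33 and 15.47 in controls on SD, 15.69, 15.42 and 15.53 in cKO on SD, 15.37, 15.64 and 15.48 in controls on HFD, and 15.71, 15.49 and 15.54 in cKO on HFD. Array 1 was the highest of both cKO groups, and the groups overlapped. Gria2, the subunit that makes the channel impermeable to calcium, ranged from 14.57 to 14.98, Gria3 from 13.34 to 13.97 and Gria4 from 12.97 to 13.32.

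Among NMDA subunits, Grin2b, the GluN2B subunit of the forebrain receptor, stood at 11.42, 11.38 and 11.25 in controls on SD, 11.53, 11.30 and 11.36 in cKO on SD, 11.50, 11.63 and 11.39 in controls on HFD, and 11.57, 11.46 and 11.73 in cKO on HFD. All groups overlapped with their neighbours. Grin2d, a GluN2 subunit of early development and interneurons, stood at 7.17, 7.30 and 7.33 in controls on SD, 7.13, 7.10 and 7.03 in cKO on SD, 7.14, 6.99 and 7.03 in controls on HFD, and 7.07, 7.01 and 7.15 in cKO on HFD. The control SD arrays were the 3 highest of the 12. Grin3a, whose GluN3A subunit lowers the calcium flow of the receptor, stood at 9.16, 9.35 and 9.26 in controls on SD, 9.41, 9.29 and 9.28 in cKO on SD, 9.48, 9.34 and 9.27 in controls on HFD, and 9.04, 9.13 and 9.27 in cKO on HFD. The cKO HFD group held the lowest arrays, its highest just under the lowest of the control HFD group (both 9.27 after rounding). Grin2a, the GluN2A subunit that becomes abundant as synapses mature, ranged from 8.63 to 9.18.

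Of the kainate subunits, Grik2 stood at 12.98, 12.67 and 12.21 in controls on SD, 12.90, 12.52 and 12.63 in cKO on SD, 12.83, 12.80 and 12.89 in controls on HFD, and 12.85, 12.75 and 12.47 in cKO on HFD. Control SD array 3, rich in oligodendrocyte transcripts, was the lowest. Grik3 stood at 8.91, 9.05 and 8.66 in controls on SD, 8.79, 8.82 and 8.74 in cKO on SD, 8.78, 8.59 and 8.82 in controls on HFD, and 9.02, 8.95 and 8.90 in cKO on HFD. The 3 cKO HFD arrays lay above all control HFD and all cKO SD arrays. Grik4 stood at 9.16, 9.03 and 9.03 in controls on SD, 9.03, 9.02 and 9.18 in cKO on SD, 9.07, 9.20 and 9.14 in controls on HFD, and 9.31, 9.28 and 9.21 in cKO on HFD, again with cKO HFD highest. Grik5, which like Grik4 forms channels only together with Grik1 to Grik3, stood at 9.08, 9.02 and 8.97 in controls on SD and 8.92, 8.85 and 8.93 in cKO on SD, and at 8.91, 8.99 and 8.91 in controls and 8.83, 8.94 and 9.05 in cKO on HFD. Its 3 cKO SD arrays lay below the 3 control SD arrays. Grik1 stood at 8.10, 8.57 and 8.15 in controls on SD, 8.09, 8.16 and 8.21 in cKO on SD, 8.41, 7.70 and 7.88 in controls on HFD, and 8.10, 7.73 and 8.25 in cKO on HFD. Array 2 was the lowest of both HFD groups, and all groups overlapped.

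Of the metabotropic receptors, Grm5, a group I receptor that releases calcium from stores in neurons and astrocytes, stood at 12.39, 12.41 and 12.48 in controls on SD, 12.27, 12.35 and 12.42 in cKO on SD, 12.63, 12.82 and 12.93 in controls on HFD, and 12.74, 12.55 and 12.32 in cKO on HFD. The control HFD arrays were above all SD arrays, while the cKO HFD group reached from SD levels to control HFD levels. Grm3, a group II receptor of neurons and glia, stood at 9.34, 10.15 and 10.31 in controls on SD and 9.48, 10.19 and 9.89 in cKO on SD, and ranged from 9.66 to 9.98 on HFD. Array 1 of both SD groups was low, and array 1 of each also had the lowest oligodendrocyte mean of its group, 9.17 and 8.78; its part in the Grm3 values was not tested. Grm7, a group III receptor at presynaptic release sites, stood at 12.11, 12.23 and 12.15 in controls on SD, 12.24, 12.03 and 12.20 in cKO on SD, 12.23, 12.41 and 12.32 in controls on HFD, and 12.43, 12.06 and 12.17 in cKO on HFD. Array 2 was the lowest of both cKO groups. Grm4, another presynaptic group III receptor, stood at 5.79, 5.95 and 6.13 in controls on SD, 5.83, 5.86 and 5.85 in cKO on SD, 5.85, 6.0 and 5.85 in controls on HFD, and 5.89, 5.97 and 6.03 in cKO on HFD, with the control SD arrays spread most. Grm2, of group II, ranged from 5.67 to 6.18.

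For the GABA-A alpha subunits, which set where and how strongly the receptor binds GABA and benzodiazepines, Gabra5 stood at 15.66, 15.31 and 15.75 in controls on SD, 15.69, 15.72 and 15.79 in cKO on SD, 15.62, 16.07 and 15.87 in controls on HFD, and 16.09, 16.03 and 15.82 in cKO on HFD. The cKO HFD arrays lay above all cKO SD arrays. Gabra3 stood at 13.22, 13.25 and 13.40 in controls on SD, 13.31, 13.39 and 13.42 in cKO on SD, 13.38, 13.35 and 13.36 in controls on HFD, and 13.63, 13.63 and 13.55 in cKO on HFD. These last 3 were the highest of the 12 arrays. Gabra2 stood at 14.02, 13.95 and 13.77 in controls on SD, 14.18, 13.60 and 14.01 in cKO on SD, 14.29, 14.25 and 14.25 in controls on HFD, and 14.41, 14.41 and 14.04 in cKO on HFD. Its control HFD arrays were above all SD arrays. Gabra4, of receptors outside synapses, stood at 10.85, 10.93 and 10.99 in controls on SD, 11.06, 11.10 and 10.97 in cKO on SD, 11.05, 11.24 and 10.99 in controls on HFD, and 11.13, 10.91 and 11.18 in cKO on HFD. Its groups overlapped in every comparison.

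Of the beta subunits, which every GABA-A receptor needs for its GABA site, Gabrb1 stood at 14.26, 14.42 and 14.47 in controls on SD, 14.50, 14.31 and 14.39 in cKO on SD, 14.71, 14.62 and 14.87 in controls on HFD, and 14.67, 14.66 and 14.47 in cKO on HFD. The 3 control HFD arrays were above all SD arrays. Gabrb2 stood at 13.07, 13.21 and 13.51 in controls on SD, 13.08, 13.40 and 13.16 in cKO on SD, 13.34, 13.16 and 13.24 in controls on HFD, and 13.28, 12.86 and 13.05 in cKO on HFD. The array with pituitary transcripts was its lowest and the one rich in oligodendrocyte transcripts its highest. The gamma subunit Gabrg1, known from hypothalamus and glia, stood at 13.50, 13.37 and 13.10 in controls on SD, 13.48, 13.29 and 13.38 in cKO on SD, 13.43, 13.20 and 13.28 in controls on HFD, and 13.54, 13.50 and 13.23 in cKO on HFD, with overlap throughout. Gabrg3 ranged from 10.51 to 10.98.

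The theta subunit Gabrq and the epsilon subunit Gabre, both known from hypothalamus, varied widely between arrays of a group. Gabrq stood at 12.12, 11.45 and 11.25 in controls on SD, 12.06, 11.79 and 11.76 in cKO on SD, 11.44, 11.73 and 11.58 in controls on HFD, and 11.72, 11.97 and 12.19 in cKO on HFD. Gabre stood at 9.94, 8.93 and 8.17 in controls on SD, 9.47, 9.03 and 9.21 in cKO on SD, 8.91, 8.80 and 8.75 in controls on HFD, and 8.66, 9.10 and 9.77 in cKO on HFD. For both, control SD array 1 was the highest and control SD array 3 the lowest of its group. The pooled SD within groups was 0.538 for Gabre and 0.28 for Gabrq. It was above 0.2 for 5 of the 31 tested subunits, the others being Grm3 (0.331), Grik1 (0.264) and Grik2 (0.241), and its median over the 31, 0.122, was close to the 0.12 over all genes tested.

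Of the GABA-B subunits, both needed for a working receptor, Gabbr2 stood at 13.29, 13.39 and 13.42 in controls on SD, 13.31, 13.53 and 13.43 in cKO on SD, 13.39, 13.35 and 13.32 in controls on HFD, and 13.48, 13.58 and 13.61 in cKO on HFD. The cKO HFD arrays were above all control HFD arrays. Gabbr1 ranged from 12.70 to 12.86 and had the smallest SD within groups of the 31, 0.046.

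**Figure D3:**
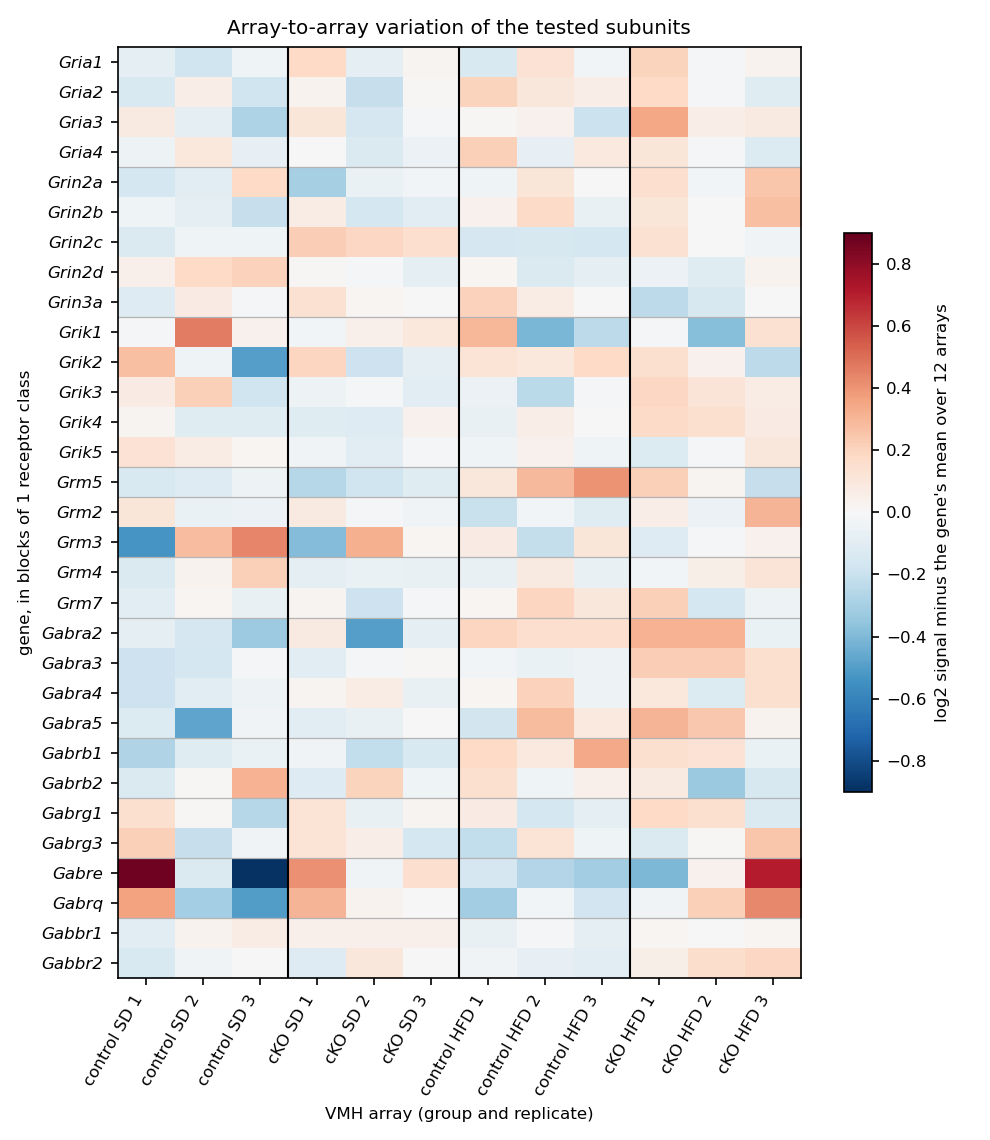
Signal of the 31 tested subunits on each VMH array minus the gene's mean over the 12 arrays (log2; red above, blue below), genes in blocks by receptor class and arrays in blocks by group. Gabre on control SD arrays 1 and 3 holds the darkest red and the darkest blue, and Grin2c is red on the cKO SD arrays.

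The map of deviations shows the 4 tested alpha subunits all below their 12-array means on each of the 3 control SD arrays. Gabra3 on control SD array 3 was only just below, at 13.40 against a mean of 13.408. The second feature of Gabra2, not on the map, stood at 13.2 ± 0.4 in controls on SD (SD, n = 3). Its 12-array mean was 13.28, so its control SD arrays were not all below it. On the 3 control HFD arrays Gabre and Gabrq were both below their means, as were Gabbr1 and Gabbr2. No other class with 2 or more tested subunits lay wholly on 1 side of its means on all 3 arrays of a group. These patterns were read from the map without a test, and the share of all genes with such a pattern was not computed.

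The first comparison asked which subunits differed between arrays labelled cKO and control on SD. None of the 31 passed the threshold of limma's test, as against 0.263% of all genes, and the lowest adjusted p was 0.224. Differences ran from -0.184 to 0.266 with a median of 0.021, against 0.018 over all genes. At an unadjusted limma p under 0.05 there were 2 subunits, Grin2c and Grin2d, against 6.67% of all genes. That number was 5 without control SD array 1, 3 without control SD array 3 and 1 without control SD array 2, as also without array 3 of the cKO SD group. Groups did not overlap for 3, Grin2c higher and Grin2d and Grik5 lower, or 9.68% of the 31 against 9.94% of all genes.

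The lowest statistics belonged to Grin2d, at -0.184 ± 0.067 (SE; limma adjusted p = 0.652), Grik5, at -0.123 ± 0.066 (0.818), and Grm4, at -0.105 ± 0.084 (0.887). The highest after Grin2c were Gria1, at 0.14 ± 0.093 (limma adjusted p = 0.862), and Gabra4, at 0.122 ± 0.088 (0.875). The Grm4 difference was -0.018 without control SD array 3, whose Grm4 signal was the highest of the 12, and -0.188 without control SD array 1. The Gria1 difference was 0.067 without cKO SD array 1.

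By transmitter, on SD 11 of the 12 tested GABA receptor subunits were positive, with a median of 0.055, and 9 of the 19 glutamate receptor subunits, with a median of -0.005, where 56.9% of all genes were positive. The 2 sets were not tested against each other. The GABA count was 9 or 10 when any 1 of the 6 arrays was left out, and the glutamate count ran from 5 to 11. Of the GABA receptor subunits 0 had an unadjusted limma p under 0.05 there, against 6.67% of all genes. Without control SD array 3 the counts were 9 of 12 and 5 of 19, and the median over all 31 became -0.01. The oligodendrocyte markers tested, 16 of 17, had a median difference of -0.568, with array means between 9.17 and 10.48 in controls and between 8.78 and 9.69 in cKO, and their part in these signs was not tested.

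On HFD the same question gave 0 of 31 subunits past the threshold, against 0.287% of all genes, with the lowest limma adjusted p at 0.203. The differences spread around a median of 0.066, against 0.029 over all genes. At an unadjusted limma p under 0.05 there were 7 subunits, 5 higher and 2 lower in cKO, or 22.6% of the 31 against 11.1% of all genes. The 5 were Gabra3, Grin2c, Gabbr2, Grik3 and Grm2, and the 2 were Grin3a and Grm5. Groups did not overlap for 8, or 25.8% against 19.9% of all genes: Gria3, Grin2c, Grik3, Grik4, Gabra3, Gabbr1 and Gabbr2 higher and Grin3a lower.

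Gabra3 had the highest statistic, at 0.242 ± 0.062 (SE; 95% interval 0.105 to 0.379; limma adjusted p = 0.203), followed by Grin2c and by Gabbr2 at 0.203 ± 0.069 (0.324). The lowest were Grin3a, at -0.219 ± 0.083 (limma adjusted p = 0.365), Grm5, at -0.259 ± 0.106 (0.4), and Gabrb1, at -0.135 ± 0.09 (0.601). Without cKO HFD array 2, which held pituitary transcripts, Gabra3 stood at 0.23, Gabbr2 at 0.191, Grin3a at -0.212 and Grm5 at -0.264. Grm5 was at -0.15 without cKO HFD array 3, and Gabrb1 at -0.071 without that array and -0.066 without control HFD array 3. Without cKO HFD array 2 the number at an unadjusted p under 0.05 was 4 in place of 7. It was also 4 without control HFD array 1 and 5 or 6 without any other array of the pair of groups. General neuron markers had a median difference of 0.085 on HFD, 16 of 20 positive, with array means between 12.07 and 12.18 in controls and 12.24 and 12.32 in cKO. Of these 20, Stmn2 passed on HFD (0.891; limma adjusted p = 0.000581) and also on SD (0.701; 0.00162), where 7 of the 20 were positive with a median of -0.052. Oligodendrocyte markers had a median of -0.414 on HFD, 13 of 16 negative, with array means between 9.36 and 9.59 in controls and between 8.99 and 9.17 in cKO. The part of neuron or oligodendrocyte content in these receptor values was not tested.

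**Figure D4:**
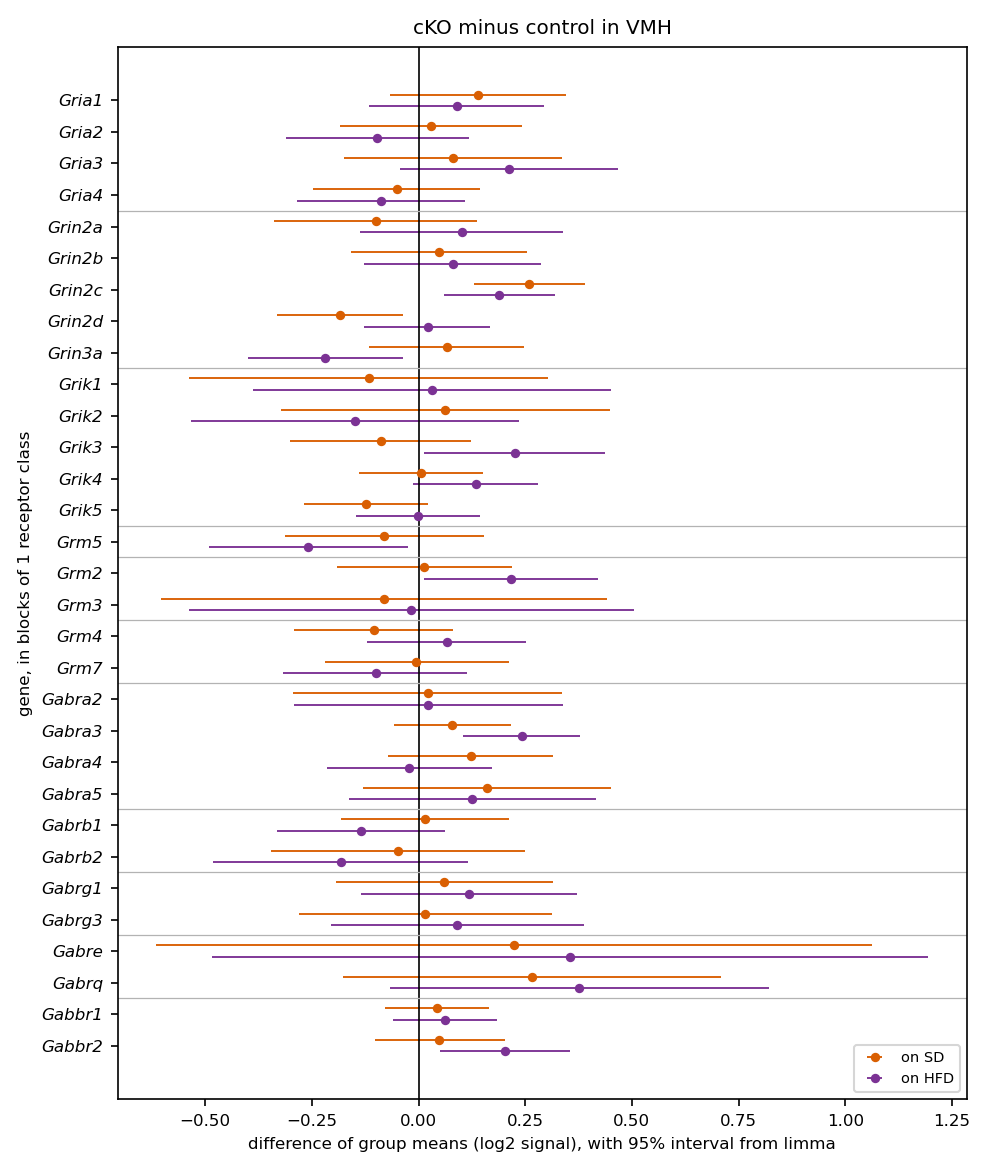
Difference of group means, cKO minus control, for the 31 tested subunits on SD (orange) and HFD (purple), in log2 units with the 95% interval from limma. The Grin2c intervals lie right of 0 on both diets, and the Gabre intervals are the widest.

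The plot of genotype differences shows how narrow most intervals were. On each diet the 95% interval lay within 0.5 of 0 for 27 of the 31 subunits, against 85% of all genes on SD and 81.3% on HFD. On SD the exceptions were Grik1, Grm3, Gabre and Gabrq, and on HFD Grik2, Grm3, Gabre and Gabrq, whose intervals reached past 0.5 in 1 direction or both. They reached past it downward for Grik1 and Grm3 on SD and for Grik2 on HFD (-0.534 to 0.236), upward for Gabrq on both diets (-0.178 to 0.71 on SD) and for Gabre on HFD (-0.484 to 1.195), and both ways for Gabre on SD (-0.615 to 1.063) and Grm3 on HFD (-0.539 to 0.504).

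Averaged over diets, Grin2c was the 1 of 31 that passed, against 0.615% of all genes. It was also the 1 subunit whose groups did not overlap on either diet in the same direction, or 3.23% against 1.95% of all genes. At an unadjusted limma p under 0.05 there were 5, or 16.1% against 11.2% of all genes: Grin2c, Gabra3, Gabbr2 and Gabrq higher and Grm5 lower. The median difference was 0.05, against 0.023 over all genes. Gabra3 stood at 0.161 ± 0.044 (SE; limma adjusted p = 0.19), Gabbr2 at 0.126 ± 0.049 (0.377), Grm5 at -0.17 ± 0.075 (0.432), Grin2d at -0.081 ± 0.047 (0.55) and Grik5 at -0.062 ± 0.047 (0.655). The Grik5 value was -0.033 without cKO HFD array 1. The number of 5 was 2 without cKO SD array 2, control HFD array 3 or cKO HFD array 3, and 3 without cKO HFD array 2, cKO SD array 1, control SD array 2 or control SD array 3. Of the GABA receptor subunits 10 of 12 were positive and of the glutamate receptor subunits 8 of 19, or 9 and 10 without control SD array 3.

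Several GABA-A genes lie side by side in the mouse genome. By gene order in the GRCm38.p6 table, Gabre, Gabra3 and Gabrq are near neighbours on chromosome X, Gabrg1, Gabra2, Gabra4 and Gabrb1 on chromosome 5, Gabra6 and Gabrb2 on chromosome 11, and Gabrg3 and Gabra5 on chromosome 7. The 3 genes on chromosome X were all positive in cKO on both diets, with Gabre at 0.224 on SD and 0.355 on HFD, Gabra3 at 0.079 and 0.242, and Gabrq at 0.266 and 0.377. None of the 3 passed the limma threshold on either diet. At an unadjusted p under 0.05 there were 0 on SD, against 6.67% of all genes, and 1, Gabra3, on HFD, against 11.1%. Without control SD array 3, in which Gabre and Gabrq were lowest, 2 of the 3 were positive on SD and their median there was 0.088 in place of 0.224. Without control SD array 1, in which these 2 were the highest of their group, all 3 were positive and the median was 0.524. In that fit 2 of the 3 had an unadjusted limma p under 0.05, as did 1401 of 16743 genes. Without cKO SD array 1 the median was 0.11. On HFD all 3 stayed positive without any 1 array, with medians from 0.262 to 0.496.

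The diet comparison asked which subunits differed between HFD and SD within a genotype, on the same 12 arrays as the genotype comparisons, so the 2 kinds of difference are not independent. In controls 0 of 31 passed, as did 0.0% of all genes, and the lowest limma adjusted p was 0.397. At an unadjusted limma p under 0.05 there were 4 subunits, Gabrb1, Grm5 and Gabra2 higher on HFD and Grin2d lower, or 12.9% against 8.38% of all genes. Groups did not overlap for 6, or 19.4% against 12.4%: Gria2, Grm5, Gabra2 and Gabrb1 higher and Grin2c and Grin2d lower. The median was 0.05, against 0.015 over all genes, and became -0.014 after quantile normalization.

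Gabrb1 stood 0.353 ± 0.09 higher on HFD (SE; 95% interval 0.155 to 0.551; limma adjusted p = 0.397), Grm5 0.365 ± 0.106 (0.442) and Gabra2 0.351 ± 0.143 (0.546). Grin2d was at -0.214 ± 0.067 (limma adjusted p = 0.471), Grik3 at -0.141 ± 0.097 (0.737) and Grik1 at -0.275 ± 0.191 (0.74). Grik3 was at -0.247 without control SD array 3, -0.053 without control SD array 2 and -0.069 without control HFD array 2. Grik1 was at -0.483 without control HFD array 1, -0.127 without control HFD array 2 and -0.128 without control SD array 2. The second feature of Gabra2 gave 0.1 in controls and 0.421 in cKO, against 0.351 and 0.354 for the brighter one. For cKO minus control it gave -0.101 on SD and 0.221 on HFD, against 0.021 and 0.023 for the brighter one. Markers of VMH neurons lay higher on HFD. Their mean was between 9.0 and 9.18 on the 6 SD arrays and between 9.19 and 9.45 on the 6 HFD arrays. Of the 22, 18 were positive in controls and 16 in cKO. In limma's test 0 passed, and 5 and 9 had an unadjusted p under 0.05, against 8.38% and 9.51% of all genes. In controls Fezf1 was at 14.84 ± 0.43 under SD and 15.19 ± 0.21 under HFD (mean ± SD, n = 3). Of 16 oligodendrocyte markers 0 were positive in controls (median -0.345) and 3 in cKO (-0.177). The part of VMH neuron or oligodendrocyte content in the diet values was not tested.

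In cKO 0 of 31 subunits passed, against 0.00597% of all genes, with the lowest limma adjusted p at 0.281. At an unadjusted limma p under 0.05 there were 6, or 19.4% against 9.51% of all genes: Gabra3, Grik4, Gabra2, Grin2a and Gabrb1 higher on HFD and Grin2c lower. Groups did not overlap for 9, or 29% against 17.5%: Grin2a, Grik3, Grik4, Grm4, Gabra3 and Gabra5 higher and Grin2c, Grin3a and Gabbr1 lower. The median was 0.063, against 0.026 over all genes, and 23 of 31 were positive, or 18 after quantile normalization.

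Gabra3 stood at 0.234 ± 0.062 (SE; 95% interval 0.097 to 0.371; limma adjusted p = 0.281), Grik4 at 0.192 ± 0.066 (0.4) and Gabra2 at 0.354 ± 0.143 (0.483). Grin2c was at -0.151 ± 0.059 (limma adjusted p = 0.46), Grin3a at -0.178 ± 0.083 (0.538) and Gabrb2, the beta subunit of many synaptic receptors, at -0.152 ± 0.135 (0.771). After quantile normalization Gabra3 was at 0.099 and Gabra2 at 0.191, and without cKO SD array 2 Gabra2 was at 0.19. Gabrb2 was at -0.048 without cKO HFD array 2, -0.263 without array 1 of that group and -0.057 without cKO SD array 2. Without cKO HFD array 2, Gabra2 was at 0.294, the number at an unadjusted p under 0.05 was 4, and the median was 0.095. That number was 3 without cKO SD array 2. All 20 general neuron markers were positive in this comparison, with a median of 0.147. Of these, 0 passed limma's test and 7 had an unadjusted p under 0.05, against 9.51% of all genes. The part of neuron content in the receptor values was not tested.

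**Figure D5:**
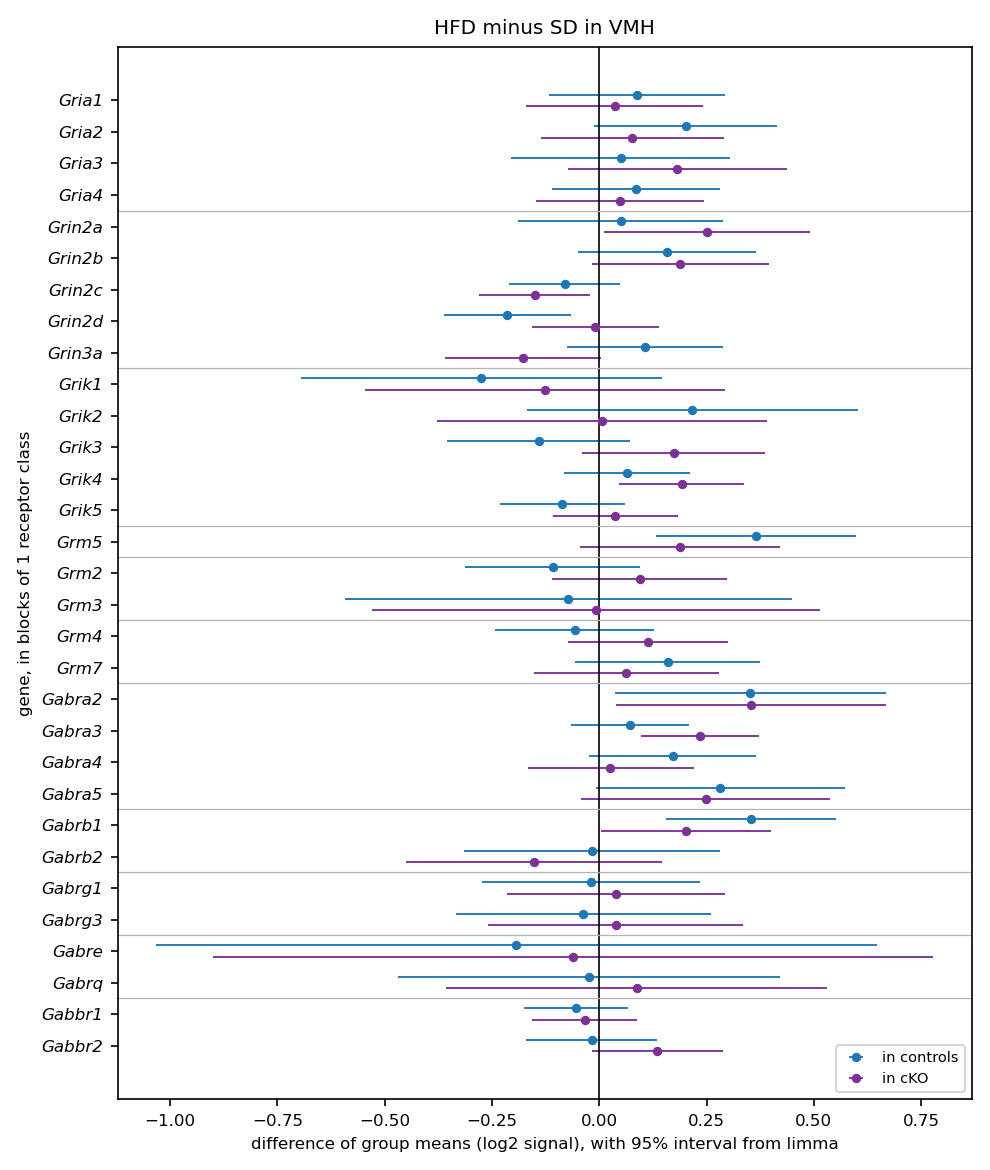
Difference of group means, HFD minus SD, for the 31 tested subunits in controls (blue) and cKO (purple), in log2 units with the 95% interval from limma. Gabra2 and Gabrb1 lie right of 0 in both genotypes, and Grin2d lies left of 0 in controls and near 0 in cKO.

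The plot of diet differences places controls and cKO side by side. Gabrb1 stood at 0.353 in controls and 0.203 in cKO, Gabra5 at 0.282 and 0.248 and Gabra2 at 0.351 and 0.354. The second feature of Gabra2 was less even, at 0.1 and 0.421. All 4 tested alpha subunits and all 4 AMPA subunits were positive in both genotypes. After quantile normalization 3 of the 4 alpha subunits were positive in each genotype, and 3 of the AMPA subunits in controls and 2 in cKO. The AMPA count in cKO was 1 without cKO HFD array 1 and 3 without cKO SD array 2, and in controls 3 without control SD array 3. The alpha count in cKO was 3 without cKO SD array 3, cKO HFD array 1 or cKO HFD array 3. Of the 4 neighbours on chromosome 5, Gabrg1, Gabra2, Gabra4 and Gabrb1, 3 were positive in controls and 4 in cKO, or 2 in cKO after quantile normalization and 2 without cKO HFD array 1.

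The interaction asked whether the genotype difference depended on diet. None of the 31 subunits passed, as was so for 0.0% of all genes, and the limma adjusted p lay between 0.862 and 1. At an unadjusted limma p under 0.05 there were 2, or 6.45% against 5.64% of all genes. That number was 0 without array 1 of cKO on SD or on HFD, and 1 when array 2 or 3 of either SD group, or array 2 of the control HFD group, was left out. Grik3 had the highest statistic, at 0.314 ± 0.137 (SE; 95% interval 0.013 to 0.616; limma adjusted p = 0.867), followed by Grin2d at 0.205 ± 0.095 (0.867) and Gabra3 at 0.163 ± 0.088 (0.88). Grin3a had the lowest, at -0.285 ± 0.117 (95% interval -0.543 to -0.027; limma adjusted p = 0.862), followed by Grm5 at -0.178 ± 0.15 (0.921) and Gabrb1 at -0.15 ± 0.127 (0.922). Without cKO HFD array 3 Grm5 was at -0.069 and Gabrb1 at -0.086, without control HFD array 3 they were at -0.112 and -0.082, and without cKO HFD array 1 Grm5 was at -0.281. Without control SD array 1 Gabrb1 was at -0.088, and without control SD array 3 Gabra3 was at 0.107. For Grin2c the interaction was -0.07 ± 0.083 (limma adjusted p = 0.949, interval -0.254 to 0.113). The interval lay within 0.5 of 0 for 21 of the 31, and for the other 10 a difference of 0.5 between diets lay inside the interval in at least 1 direction.

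Proteins that hold the receptors at synapses or tune them were looked at as a second set. Of 30 glutamate receptor partners (auxiliary subunits and scaffolds) 28 were tested and of 16 GABA receptor partners 14. In limma's test 0 passed in any of the 6 comparisons, against at most 0.615% of all genes. At most 3 of either set reached an unadjusted p below 0.05. These were 3 of 14 GABA partners for genotype on HFD, against 11.1% of all genes. For diet in cKO they were 3 of 28 glutamate partners, against 9.51% of all genes. The glutamate partners had a median of -0.021 on SD, 0.015 on HFD and -0.024 averaged over diets for cKO minus control, with 10, 17 and 10 of 28 positive. The GABA partners had medians of 0.017, 0.069 and 0.043. Plcl1, which binds GABA-A receptors and takes part in their trafficking, was at -0.314 ± 0.074 averaged over diets (SE; limma adjusted p = 0.117). Dlg3 (SAP102), a scaffold of NMDA receptors, was at 0.109 ± 0.036 (limma adjusted p = 0.299), and its groups did not overlap on either diet. Homer1, a scaffold of group I metabotropic receptors such as Grm5, was 0.253 ± 0.081 higher on HFD in controls (limma adjusted p = 0.476) and 0.262 ± 0.081 in cKO (0.345), without overlap in either genotype.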

How the data were processed

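The deposited series table held 1 column of log2 signals per array, between 2.1167 and 19.9315; per the submitters' processing notes the software was PLIER 2.0 and Affymetrix Expression Console 1.1.1, without their roles. Normalization between arrays, genome build and batches were not given in the sources used here. Medians of the 12 VMH arrays lay between 5.482 and 5.572, and arrays correlated at 0.992 to 0.996; precision is limited by how many arrays there were. Of 65956 features that are not controls, 30604 had 1 gene symbol, 2146 several and 33206 none; 22818 matched a GRCm38.p6 gene table by gene ID, which updated 827 symbols. A gene was tested when its brightest feature's mean over the VMH arrays reached 5.3885, the median over these features.

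limma 3.58.1 in R 4.3.3 fitted the 4 group means over 12 arrays, with no block and equal weights. P-values were two-sided, adjusted by Benjamini-Hochberg over all genes tested in a comparison, with a threshold of 0.05. The procedure was run on simulated data with noise drawn independently for each gene, which leaves out variation shared between genes. No recovery rate is given here. Full statistics were given for subunits past the threshold and, where fewer than 3 passed, for the 3 highest and 3 lowest moderated statistics; single arrays also for the brightest subunit of a class. The members and lists were chosen with earlier results of these data known. Alternatives were leaving out each array, a replicate block, weighting of arrays, fitting only the groups compared, averaging a gene's features, testing all genes unfiltered, a pseudocount of 16 and quantile normalization.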

Additional observations from a re-analysis of the deposited data

How the results depend on the processing

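Of the 36 named results over 16 subunits, none reversed under 528 alternatives and 15 lost a call, all for Grin2c averaged over diets. The number of subunits called in that comparison was 0 in place of 1 with a pseudocount of 16 (limma adjusted p = 0.0552), with no filter (0.0908), and without each of the 12 arrays in turn (0 to 0), and it stayed 1 with quantile normalization (0.0252), array weights (0.025) and the mean of a gene's features (0.0407). In the other 5 comparisons 0 were called under every alternative run. The median difference of the subunits was, for HFD minus SD in controls, -0.014 with quantile normalization and -0.019 with no filter, and in cKO 0.018 with quantile normalization. Leaving out 1 array gave medians of -0.016 to 0.058 for cKO minus control on SD, 0.033 to 0.08 on HFD, 0.024 to 0.056 averaged, 0.024 to 0.067 for diet in controls, 0.051 to 0.105 in cKO and -0.027 to 0.097 for the interaction. Whether the replicate numbers pair the arrays was not settled. Deviations of 18 same-numbered pairs correlated at -0.342 to 0.282, with 3 above 0.1, and other pairs at -0.252 to 0.335. Deviations from means of only 3 arrays constrain each other, so these correlations cannot exclude a pairing. With the replicate block 0 subunits were called in every comparison, Grin2c standing at 0.224 with a limma adjusted p of 0.0879. The fit on only the groups compared does not apply to the averaged and interaction comparisons. Signal near that of the negative-control features limits Grin2c, Grin2d, Grm2 and Grm4, and with 3 arrays a group no test for a far array was made.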

Other observations

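Other ligand-gated receptor subunits outside the 36 genes, the delta glutamate, GABA-A rho and glycine receptors, were tested for 7 of 10 genes. In limma's test 0 passed in any of the 6 comparisons, against at most 0.615% of all genes. At most 1 had an unadjusted p under 0.05, where all genes had 5.64% to 11.2% by comparison. Glra4, a glycine receptor alpha subunit, was at 0.54 ± 0.158 for cKO minus control on HFD (SE; limma adjusted p = 0.261), without overlap of the groups. Features annotated to several symbols were kept out of the 36: the feature shared by Grm8 and Mir592 stood at 7.41 ± 0.32 in controls and 7.63 ± 0.22 in cKO on SD, and at 7.53 ± 0.14 and 7.72 ± 0.10 on HFD (SD, n = 3), with no test. Of 5 genes of transmitter synthesis and transport tested, 0 passed in any comparison, with at most 1 at an unadjusted limma p under 0.05. The shares of all genes are those just given. Gad2, which makes GABA, stood at -0.715 ± 0.355 for HFD minus SD in controls (SE; limma adjusted p = 0.634), and Slc17a6 at 0.318 ± 0.105 (0.492). In cKO Gad1, which also makes GABA, stood at -0.574 ± 0.301 (limma adjusted p = 0.59) and Slc17a6 at 0.278 ± 0.105 (0.439). The median of the 5 for diet was -0.583 in controls, with 2 positive, and -0.574 in cKO, with 1 positive. The part of such a difference in the receptor values was not tested.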
